A study of Mus musculus with 26 samples.

Results

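The lysyl oxidase family consists of Lox, Loxl1, Loxl2, Loxl3 and Loxl4, and its 5 genes were taken by symbol from count tables of 24421 genes. All 5 passed the filter on low counts, in the fit across time (13392 genes tested) and in the fit by gate (13812 genes tested). The libraries came from stromal cells of the mouse heart that carry a nuclear green fluorescent protein expressed from Pdgfra, a growth factor receptor gene active in fibroblasts. The cells were sorted as CD45 negative and CD31 negative, which is meant to leave out leukocytes and endothelium, and were split by the surface protein Sca-1. Transcripts that mark both cell types were still detected, as given below. The 26 libraries comprised 9 of undamaged hearts (5 Sca-1 positive, 4 negative), 6 of hearts taken at day 7 of infarction by tying off the left anterior descending artery (1 positive, 1 negative, 4 whose labels give no gate), 4 of day 14 (2 positive, 2 negative) and 7 of day 28 (4 positive, 3 negative).

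All groups shared the reporter strain B6.129S4-Pdgfratm11(EGFP)Sor/J on C57BL/6 and the genotype label PDGFRa H2BEGFP+, so no library lacked the reporter. The labels give no age and do not say whether libraries came from separate animals. The p-values therefore measure the spread between these libraries, which may in part be technical. In bulk libraries, fewer cells of a type and less RNA per cell cannot be told apart.

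Lysyl oxidases are secreted, copper-dependent enzymes that oxidise lysine residues of collagens and elastin, and the aldehydes so formed condense into covalent crosslinks between matrix molecules. Crosslinking makes collagen stiffer and harder to degrade, and in the heart it is known as a step in scar maturation after infarction. Lox and Loxl1 are made as proenzymes whose propeptide is cut off outside the cell by Bmp1 and related proteases. Loxl2, Loxl3 and Loxl4 instead carry scavenger receptor cysteine-rich domains in front of the catalytic domain. Transcript levels say nothing of the amount of active enzyme, which was not measured.

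In GENCODE M21 (GRCm38), Lox lies on chromosome 18 from 52516067 to 52529867 on the minus strand. Loxl1 lies on chromosome 9 from 58287738 to 58313186, also on the minus strand. Loxl2 lies on chromosome 14 from 69609068 to 69695834 on the plus strand. Loxl3 lies on chromosome 6 from 83034173 to 83052562 on the plus strand. Loxl4 lies on chromosome 19 from 42593982 to 42612813 on the minus strand. Loxl3 overlaps Htra2, a protease gene on the opposite strand, and the strand setting of the counting is not known, so shared reads cannot be told apart. Htra2 averaged 34.6 ± 6.38 CPM (counts scaled to library size) at day 7 (SD, n = 6) and 32.4 ± 6.80 CPM in undamaged hearts (SD, n = 9), and it was called in none of the 6 time comparisons. Lox and Loxl2 overlap only non-coding annotations (an antisense RNA at Lox; an antisense RNA, an unclassified transcript and a microRNA at Loxl2), and Loxl1 and Loxl4 overlap no other gene.

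The libraries held 6.79 M to 48.8 M reads counted to genes, and the members' counts ran from 75 (Loxl4) to 82093 (Loxl1). Sca-1 positive library E2 of day 28 stood apart, with 55.8% of its reads outside genes, against 5.53% to 18.7% in the other 25 libraries. The 3 undamaged libraries with the fewest detected genes (Sca-1 negative A6 and B7, Sca-1 positive B7) held 12325 to 12977 genes. Xist exceeded 20 CPM in 6 libraries, 4 of day 7 and 2 of day 14, and in none of undamaged hearts or day 28. Library codes were of 2 main kinds, short ones (5 undamaged, 3 of day 28) and prefixed ones (4 at each time), and 2 libraries of day 7 carried none. No full prefix was shared between times, although those of day 14 and day 28 begin alike. Fits among prefixed libraries therefore cannot tell prefix from time. Markers of the labelled fibroblast-like stroma were present: Pdgfra, Col1a1, Dcn, Tcf21, Lum and Ddr2 summed to between 22340 and 51963 CPM in every library and none of the 6 was at 0 in any time group.

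The members were not expressed at like levels. Levels of different genes were compared per kilobase of merged exons, as CPM per kb. Loxl1 was the most abundant member in 24 of 26 libraries. Its level per kb averaged 346 ± 50.8 in undamaged hearts (SD, n = 9), 558 ± 89.2 at day 7 (n = 6), 478 ± 47.7 at day 14 (n = 4) and 424 ± 110.3 at day 28 (n = 7). Lox came first in the other 2 libraries, both of day 7 with the codes 1A and 1B.

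In undamaged hearts Loxl2 followed with 62.5 ± 22.5 CPM per kb and Lox with 44.1 ± 17.7 CPM per kb, and their ranges overlapped. Loxl2 ranked above Lox in 6 of the 9 undamaged libraries. Loxl3 averaged 19.9 ± 5.03 CPM per kb in undamaged hearts. Its range overlapped with that of Lox, although Lox ranked above Loxl3 within every library. Loxl4 was the least abundant member in all 26 libraries, at 4.68 ± 2.67 CPM per kb in undamaged hearts and 6.93 ± 1.29 CPM per kb at day 28. At day 7 Loxl1 was followed by Lox with 418 ± 134.6 CPM per kb, Loxl2 with 105 ± 19.2 and Loxl3 with 76.1 ± 30.5, and Loxl1 overlapped with Lox, and Loxl2 with Loxl3. At day 14 Lox, at 172 ± 77.1 CPM per kb, again overlapped with Loxl2, at 107 ± 29.6 CPM per kb. At day 28 Lox averaged 115 ± 22.5 CPM per kb and Loxl2 71.1 ± 17.4 CPM per kb, and their ranges overlapped only between 94.0 and 94.1 CPM per kb.

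**Figure D1:**
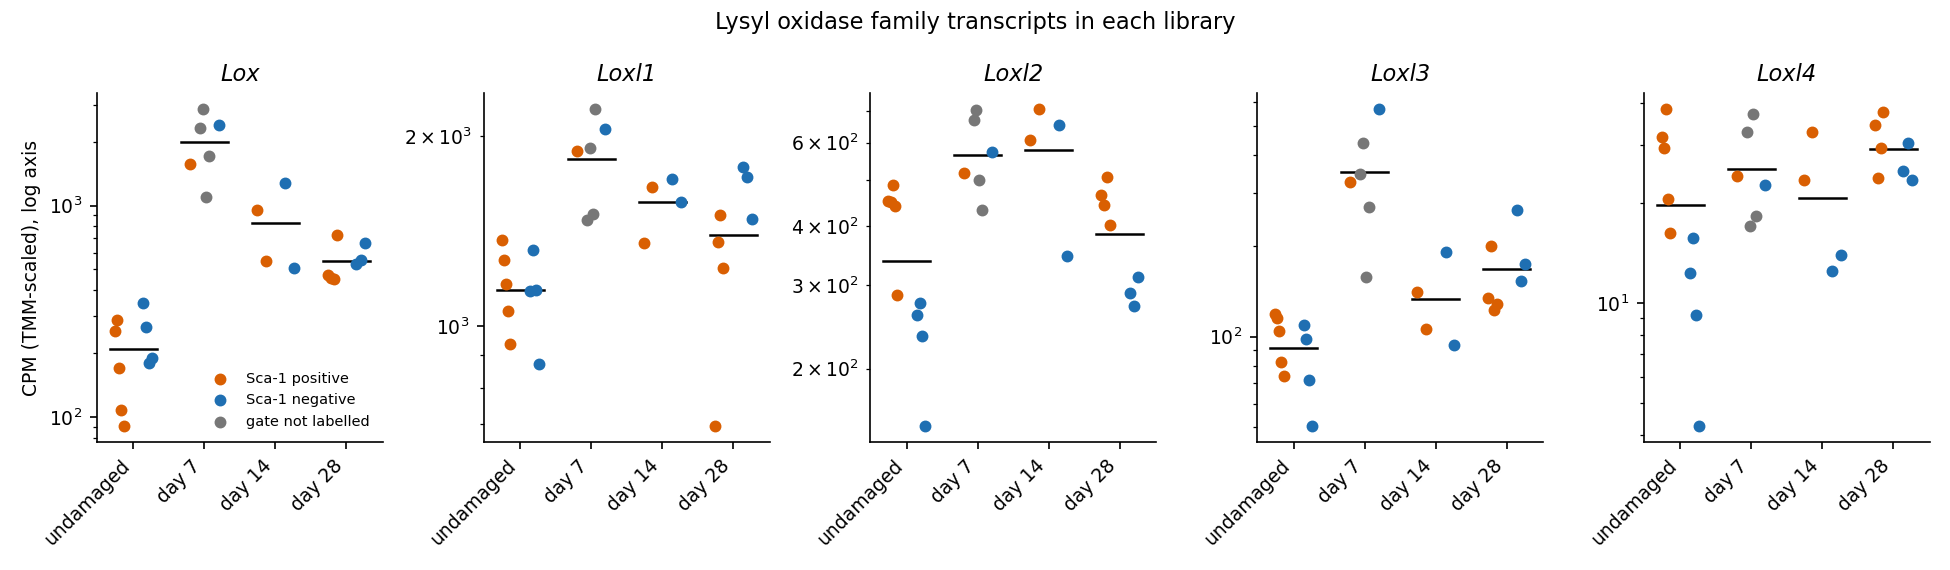
CPM of each member in every library, on log axes that differ between genes, at the 4 time points; orange points are Sca-1 positive, blue points Sca-1 negative and grey points libraries with no labelled gate, and black bars are means. The 6 libraries of day 7 lie above all 9 undamaged libraries for Lox, Loxl1 and Loxl3, and the groups overlap for Loxl2 and Loxl4. How many of all genes separate so was not counted.

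The summed level of the family averaged 478 ± 81.6 CPM per kb in undamaged hearts (SD, n = 9), 1164 ± 211.4 at day 7 (n = 6), 791 ± 118.4 at day 14 (n = 4) and 653 ± 107.99 at day 28 (n = 7). Lox made up 9.13% ± 3.16 of this sum in undamaged hearts, 35.3% ± 6.37 at day 7, 21.2% ± 6.98 at day 14 and 17.96% ± 4.17 at day 28. The shares of Lox at day 7 (28.0% to 42.7%) lay above those in undamaged hearts (5.03% to 14.7%). Loxl1 made up 72.9% ± 3.47 in undamaged hearts, 48.7% ± 7.62 at day 7, 61.1% ± 8.28 at day 14 and 63.8% ± 7.87 at day 28. Loxl4 never exceeded 1.89% of the sum. These shares are a description, and they were not tested.

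**Figure D2:**
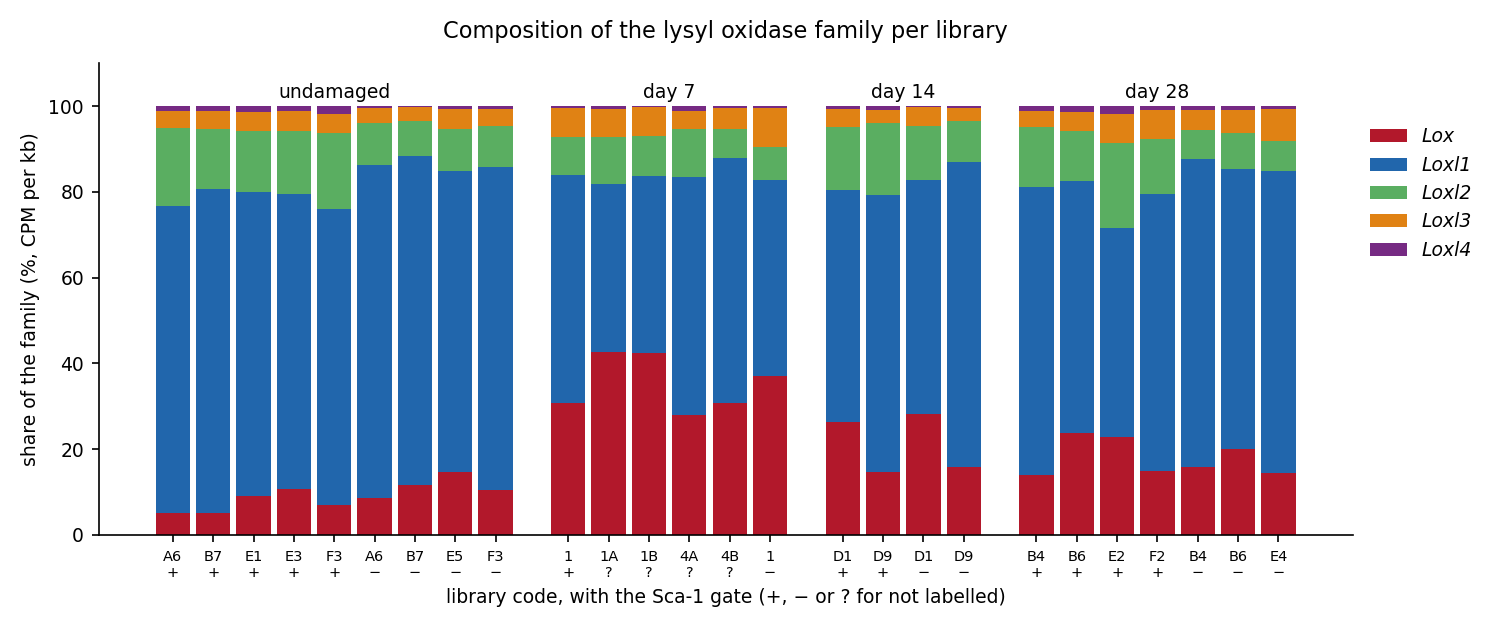
Share of each member in the family's summed CPM per kb, in percent, 1 bar per library, grouped by time with the library code and the gate under each bar. Lox takes 28.0% to 42.7% at day 7 and 5.03% to 14.7% in undamaged hearts, while Loxl1 holds the largest share in 24 of 26 libraries.

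At day 7, 4 of the 5 members were higher than in undamaged hearts, led by Lox and Loxl3. Of all genes tested, 11.5% were called higher in this comparison. Calls here and below are those with an adjusted p under 0.05 in edgeR's quasi-likelihood test with Benjamini-Hochberg adjustment over all genes. Differences are on the log2 scale with their standard errors. Overlap of groups, here and below, was examined for the members only, so the share of all genes that do not overlap is not known.

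Lox, which crosslinks both collagen and elastin, had a lowest, median and highest value of 1102, 2025 and 2853 CPM at day 7, against 90.9, 190 and 346 CPM in undamaged hearts. The groups did not overlap, and within day 7 the libraries coded 1A and 1B (2328 and 2853 CPM) lay above those coded 4A and 4B (1102 and 1721 CPM). The log2 difference was 3.25 ± 0.26, or 9.50-fold (adjusted p = 7.58e-10), and by its size Lox ranked 228 among the 13392 genes tested.

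Loxl1, which in mice is needed for elastic fibre upkeep, ran from 1476 over 1905 to 2205 CPM at day 7, and from 871 over 1142 to 1369 CPM in undamaged hearts. The groups did not overlap, but the step was small, with a log2 difference of 0.69 ± 0.16 (adjusted p = 0.00191). Without the 6 libraries with Xist above 20 CPM, which leaves 2 of day 7, the difference was 0.57 ± 0.25 and was not called (adjusted p = 0.192).

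Loxl2, which crosslinks collagens including those of basement membranes, ran from 433 over 545 to 703 CPM at day 7, and from 151 over 286 to 489 CPM in undamaged hearts. The groups overlapped. Loxl2 was higher by 0.75 ± 0.22 on the log2 scale (adjusted p = 0.0128), and without the 3 undamaged libraries with the fewest detected genes it was 0.53 ± 0.20 (adjusted p = 0.0535).

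Loxl3, which in mice is needed for the development of the palate and spine, ran from 158 over 336 to 566 CPM at day 7, and from 50.6 over 97.8 to 119 CPM in undamaged hearts. Again the groups did not overlap, and the libraries coded 4A and 4B (158 and 269 CPM) were the lowest of day 7. Loxl3 was higher by 1.94 ± 0.23 on the log2 scale (adjusted p = 5.46e-07). Loxl4, the least studied member, ran from 17.0 over 23.4 to 37.2 CPM at day 7 and from 4.26 over 16.3 to 38.4 CPM in undamaged hearts, and its difference of 0.36 ± 0.31 was not called (adjusted p = 0.443). The 95% interval of that difference was -0.26 to 0.98.

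Among prefixed libraries alone, 4 of day 7 against 4 undamaged, the same 4 members were called, with log2 differences of 3.8 ± 0.37 for Lox, 0.81 ± 0.17 for Loxl1, 1.04 ± 0.29 for Loxl2 and 2.11 ± 0.28 for Loxl3. No full prefix recurs across times, so prefix and time cannot be told apart in that fit. In undamaged hearts, all 5 members had lower means in prefixed libraries than in those with short codes, a difference that was not tested. Lox averaged 142 ± 50.5 CPM in undamaged prefixed libraries (SD, n = 4) and 265 ± 63.6 CPM in those with short codes (n = 5), and Loxl3 did not overlap between them (50.6 to 82.2 CPM with a prefix, 97.8 to 119 CPM with a short code).

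Some markers of other cells were also called at day 7, where 11.5% of all genes tested were called higher and 11.2% lower. Endothelial markers summed to 25.6 to 29.4 CPM at day 7 and 49.7 to 211 CPM in undamaged hearts, and 6 of 6 were called lower. Leukocyte and macrophage markers summed to 27.8 to 52.0 CPM at day 7 and 10.9 to 32.4 CPM in undamaged hearts, and 3 of the 7 tested were called higher. Epicardial markers summed to 6.94 to 83.2 CPM at day 7 and 0 to 8.91 CPM in undamaged hearts, and 5 of 5 were called higher. None of these markers was at 0 throughout either group, and their part in the changes of Lox, Loxl1, Loxl2 and Loxl3 was not tested. Of the mural markers 1 of 8 was higher and 1 lower at day 7, which is near the shares of all genes. No cardiomyocyte marker (6 tested) or Schwann cell marker (2 tested) was called at day 7, and no adipocyte marker passed the filter. Of the 6 fibroblast markers 1 was higher and 3 were lower.

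At day 14, Lox and Loxl2 were higher than in undamaged hearts, and 5.84% of all genes tested were called higher. Lox measured 953 and 549 CPM in the positive and 1286 and 506 CPM in the negative libraries of day 14, against 90.9 to 346 CPM in undamaged hearts. No library of day 14 fell within the undamaged range, and the 2 libraries coded D1 were the highest. Lox was higher by 1.97 ± 0.28 on the log2 scale (adjusted p = 2.17e-05).

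Loxl2 measured 608 and 706 CPM in the positive and 653 and 346 CPM in the negative libraries of day 14, against 151 to 489 CPM in undamaged hearts. The negative library D9 lay within the undamaged range. The log2 difference of 0.78 ± 0.24 was just past the threshold (adjusted p = 0.0406), and leaving out any one of 7 libraries ended the call (undamaged negative E5, F3 or A6, undamaged positive B7, or day 14 negative D1, positive D1 or positive D9), with adjusted p-values up to 0.157. Without the libraries with Xist above 20 CPM the adjusted p was 0.130. The 4 libraries of day 14 carry 2 codes, and with the counts of libraries that share a code summed (2 sums of day 14, 6 of undamaged hearts) Loxl2 differed by 0.69 ± 0.24 and was not called (adjusted p = 0.132), while Lox was (1.85 ± 0.34, adjusted p = 0.00201).

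Loxl1 (1355 and 1660 CPM in the positive, 1712 and 1573 CPM in the negative libraries of day 14) differed from undamaged hearts by 0.46 ± 0.18 and was not called (adjusted p = 0.106). Loxl3 (141 and 106 CPM in the positive, 191 and 93.8 CPM in the negative libraries) differed by 0.53 ± 0.25 and was not called either (adjusted p = 0.219). Both were called among prefixed libraries alone, with 0.64 ± 0.17 for Loxl1 (adjusted p = 0.0232) and 0.92 ± 0.27 for Loxl3 (adjusted p = 0.0425). Over all libraries the alternative tool DESeq2 called Loxl1 (0.48 ± 0.17, adjusted p = 0.0493). With the kind of code held, edgeR called Loxl3 (0.88 ± 0.24, adjusted p = 0.0197). Loxl4 (23.5 and 32.8 CPM in the positive, 12.5 and 14.0 CPM in the negative libraries) differed by 0.07 ± 0.36 (adjusted p = 0.949). For Loxl4 at day 14 both positive libraries lay above both negative ones. With so few libraries per gate such a split can arise by chance, and how many of all genes split so was not counted.

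At day 28, Lox and Loxl3 were higher than in undamaged hearts, and 3.45% of all genes tested were called higher. Lox ran from 449 over 530 to 725 CPM at day 28, above the undamaged range of 90.9 to 346 CPM. The log2 difference was 1.38 ± 0.25 (adjusted p = 0.000773). It was 2.05 ± 0.34 among prefixed libraries and 0.86 ± 0.20 among those with short codes, and both were called (adjusted p = 0.00123 and 0.0237).

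Loxl3 ran from 123 over 153 to 262 CPM at day 28, and its lowest library lay just above the highest undamaged one at 119 CPM. Loxl3 was higher by 0.87 ± 0.22 on the log2 scale (adjusted p = 0.0156). Without the 3 undamaged libraries with the fewest detected genes it was 0.67 ± 0.23 and was not called (adjusted p = 0.0743). With libraries of one code summed (5 of day 28, 6 of undamaged hearts) it was 0.84 ± 0.26 and was not called either (adjusted p = 0.0821), while Lox was (1.19 ± 0.27, adjusted p = 0.0171). Within the kinds of code it was 1.03 ± 0.27 with a prefix (adjusted p = 0.0205) and 0.86 ± 0.19 with a short code (adjusted p = 0.0189).

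The other members were not called at day 28 over all libraries. Loxl1 ran from 696 over 1481 to 1789 CPM, and its lowest value belonged to library E2, the one with most reads outside genes. Its difference from undamaged hearts was 0.29 ± 0.15 (adjusted p = 0.285), and among prefixed libraries alone it was 0.55 ± 0.17 and was called (adjusted p = 0.0405). Loxl2 ran from 271 over 402 to 509 CPM, with a difference of 0.19 ± 0.21 (adjusted p = 0.682). Loxl4 ran from 23.5 over 29.4 to 37.6 CPM, with a difference of 0.56 ± 0.30 (adjusted p = 0.310).

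Endothelial markers summed to 23.8 to 40.4 CPM at day 14 (3 of 6 called lower than in undamaged hearts) and to 10.5 to 80.5 CPM at day 28 (5 of 6 called lower). Epicardial markers summed to 25.3 to 197 CPM at day 14 (4 of 5 called higher) and to 10.5 to 105 CPM at day 28 (3 of 5 called higher). No leukocyte marker was called at either time, and 1 cardiomyocyte marker was lower at day 28. Of the 8 mural markers 1 was higher at day 14 and none was called at day 28. Of the 6 fibroblast markers 1 was higher and 2 were lower at day 14, and 2 were higher at day 28. Beside these marker counts, 5.84% of all genes tested were called higher and 3.14% lower at day 14. At day 28 these shares were 3.45% and 1.94%. No endothelial or epicardial marker was at 0 throughout a time group, and their part in the changes of Lox, Loxl2 and Loxl3 was not tested.

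**Figure D3:**
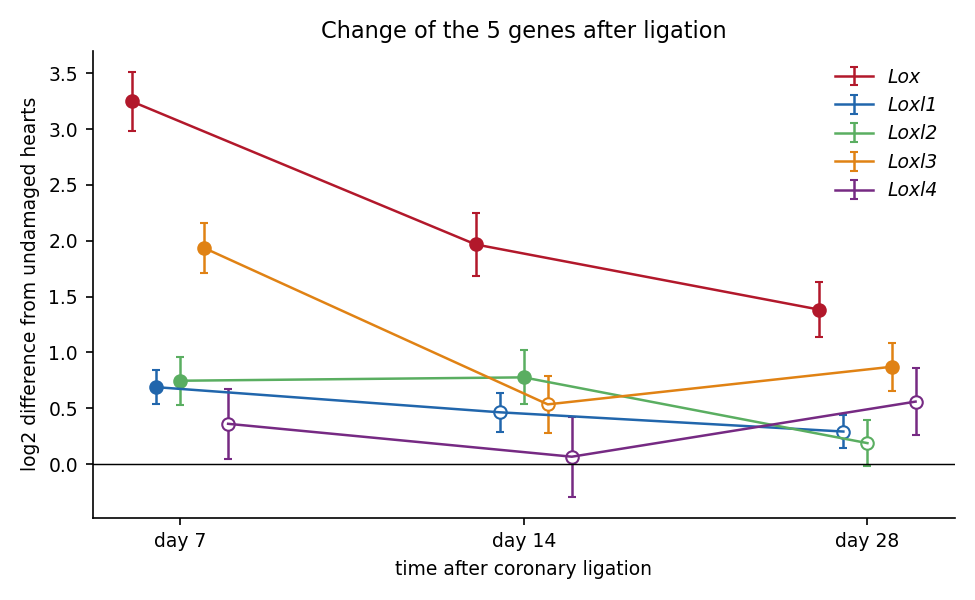
Log2 difference of each member from undamaged hearts at days 7, 14 and 28, with standard errors; filled points passed an adjusted p under 0.05 and open points did not. Lox stands at 3.25, 1.97 and 1.38 and Loxl3 at 1.94, 0.53 and 0.87, while Loxl1, Loxl2 and Loxl4 stay under 1; the 3 comparisons share the undamaged libraries.

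The decline after day 7 was called for Lox and Loxl3. Between day 28 and day 7, 5.50% of all genes tested were called lower. Lox at day 28 (449 to 725 CPM) lay below every library of day 7 (1102 to 2853 CPM), with a log2 difference of -1.86 ± 0.28 (adjusted p = 7.51e-05). Loxl3 at day 28 (123 to 262 CPM) overlapped with day 7 (158 to 566 CPM), with a log2 difference of -1.06 ± 0.24 (adjusted p = 0.00442). Loxl1 (-0.40 ± 0.17, adjusted p = 0.120) and Loxl2 (-0.56 ± 0.23, adjusted p = 0.114) were not called, and Loxl4 differed by 0.20 ± 0.33 (adjusted p = 0.763).

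The timing of the decline was less certain. Between day 14 and day 7, edgeR called no member and 2 of the 13392 genes (0.0149%), while 1217 genes had an unadjusted p under 0.05. The largest differences of members were -1.40 ± 0.29 for Loxl3 (adjusted p = 0.0552) and -1.28 ± 0.33 for Lox (adjusted p = 0.118), while Loxl1 differed by -0.23 ± 0.19, Loxl2 by 0.03 ± 0.27 and Loxl4 by -0.29 ± 0.39 (adjusted p of 0.826, 0.993 and 0.918). DESeq2 called both lower (adjusted p = 0.000862 for Loxl3 and 0.0136 for Lox), limma-voom called Loxl3 (adjusted p = 0.0313), and so did edgeR with the gate held in 22 libraries (adjusted p = 0.0135) or without day 7 library 4A (adjusted p = 0.0115) or day 14 negative library D1 (adjusted p = 0.0423). Between day 28 and day 14 no member was called by any of these 3 tools, against 3.18% of all genes with edgeR, and 2195 genes had an unadjusted p under 0.05. There Loxl2 differed by -0.59 ± 0.25 (adjusted p = 0.228) and Lox by -0.58 ± 0.30 (adjusted p = 0.343). Loxl1 differed by -0.17 ± 0.19, Loxl3 by 0.34 ± 0.27 and Loxl4 by 0.49 ± 0.38 (adjusted p of 0.726, 0.609 and 0.583).

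Between the gates of undamaged hearts, Loxl2 and Loxl4 were higher in Sca-1 positive cells, and 1.65% of all genes tested were called higher. Loxl2 measured 452, 450, 489, 442 and 286 CPM in the positive libraries E1, E3, F3, A6 and B7, against 259, 275, 234 and 151 CPM in the negative libraries E5, F3, A6 and B7. The gates did not overlap, although positive B7 stood only just above the highest negative library. The log2 difference was 0.87 ± 0.21 (adjusted p = 0.0223). Leaving out positive E1, E3 or F3, or negative A6 or B7, ended the call, with adjusted p-values of 0.0549 to 0.0646, and the difference then lay between 0.71 and 0.88.

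Loxl4 measured 31.7, 29.3, 38.4, 20.5 and 16.3 CPM in the positive libraries E1, E3, F3, A6 and B7, against 12.3, 15.7, 9.23 and 4.26 CPM in the negative libraries E5, F3, A6 and B7. The gates again did not overlap. The log2 difference was 1.38 ± 0.30 (adjusted p = 0.0125). Among libraries with short codes alone both members were called (0.80 ± 0.15 for Loxl2, adjusted p = 0.0162; 1.24 ± 0.22 for Loxl4, adjusted p = 0.0141). Among prefixed libraries alone neither was, with 0.91 ± 0.34 for Loxl2 (adjusted p = 0.238) and 1.45 ± 0.36 for Loxl4 (adjusted p = 0.0778).

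Lox measured 256, 287, 170, 108 and 90.9 CPM in the positive libraries E1, E3, F3, A6 and B7, against 346, 266, 181 and 190 CPM in the negative libraries E5, F3, A6 and B7. The gates overlapped, with a log2 difference of -0.44 ± 0.33 (adjusted p = 0.566). Codes shared by both gates were taken as pairs, which the labels do not establish. Within the 3 undamaged pairs Lox was lower in the positive library each time. With the code as a replicate block the difference was -0.83 ± 0.15, and Lox was called lower in the positive gate (adjusted p = 0.0104; 1.78% of all genes were called lower in that fit and 2.41% higher). Loxl1 (0.04 ± 0.20, adjusted p = 0.950) and Loxl3 (0.26 ± 0.25, adjusted p = 0.683) were not called.

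Mural markers summed to 104 to 154 CPM in the positive and 257 to 538 CPM in the negative libraries of undamaged hearts, and 2 of 8 were called lower in the positive gate, where 1.45% of all genes were. Endothelial markers summed to 49.7 to 120 CPM in the positive and 50.4 to 211 CPM in the negative libraries, with no call among 6. None of these markers was at 0 throughout either gate, and their part in the gate differences of Loxl2, Loxl4 and Lox was not tested.

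After ligation no member was called between the gates. At day 14, 0.0507% of all genes were called, and 257 had an unadjusted p under 0.05. Loxl4 stood at 23.5 and 32.8 CPM in the positive and 12.5 and 14.0 CPM in the negative libraries, a difference of 1.10 ± 0.43 (unadjusted p = 0.0192, adjusted p = 1). The other members overlapped, with differences of -0.24 ± 0.49 for Lox, -0.11 ± 0.30 for Loxl1, 0.40 ± 0.30 for Loxl2 and -0.20 ± 0.37 for Loxl3 (each adjusted p = 1).

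At day 28, 0.594% of all genes were called, and 2027 had an unadjusted p under 0.05. Loxl2 did not overlap between the gates of day 28, with 464, 444, 509 and 402 CPM in the positive libraries E2, F2, B4 and B6, against 289, 271 and 311 CPM in the negative libraries E4, B4 and B6. Its difference was 0.64 ± 0.23 (adjusted p = 0.210). Lox differed by -0.16 ± 0.38, Loxl1 by -0.48 ± 0.23 and Loxl3 by -0.43 ± 0.28 (adjusted p of 0.889, 0.336 and 0.4998).

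Loxl4 at day 28 overlapped between the gates, with 34.5, 23.8, 29.4 and 37.6 CPM in the positive libraries E2, F2, B4 and B6, against 25.0, 30.4 and 23.5 CPM in the negative libraries E4, B4 and B6. The gate difference was 0.24 ± 0.33 at day 28 (adjusted p = 0.786). The change in the gate difference, day 28 minus undamaged, was -1.15 ± 0.44 for Loxl4 (unadjusted p = 0.0166, adjusted p = 0.907). No gene passed that test with edgeR, and 719 of 13812 had an unadjusted p under 0.05. For the change between day 14 and undamaged hearts edgeR also called no gene, and 202 had an unadjusted p under 0.05. DESeq2 and limma-voom called no member in either test.

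At day 7 each labelled gate had 1 library, so no test was made. The positive and negative libraries held 1580 and 2413 CPM of Lox, 1892 and 2054 CPM of Loxl1, 517 and 572 CPM of Loxl2, 326 and 566 CPM of Loxl3, and 24.2 and 22.7 CPM of Loxl4. Over the 7 code pairs of the other times, Loxl2 was higher in the positive library of 6 pairs and Loxl4 of 6 pairs. Lox and Loxl1 were each lower in 5 pairs, and Loxl3 was higher in 4 and lower in 3. The undamaged pairs among these also entered the gate calls above, and the share of all genes with such counts was not taken.

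**Figure D4:**
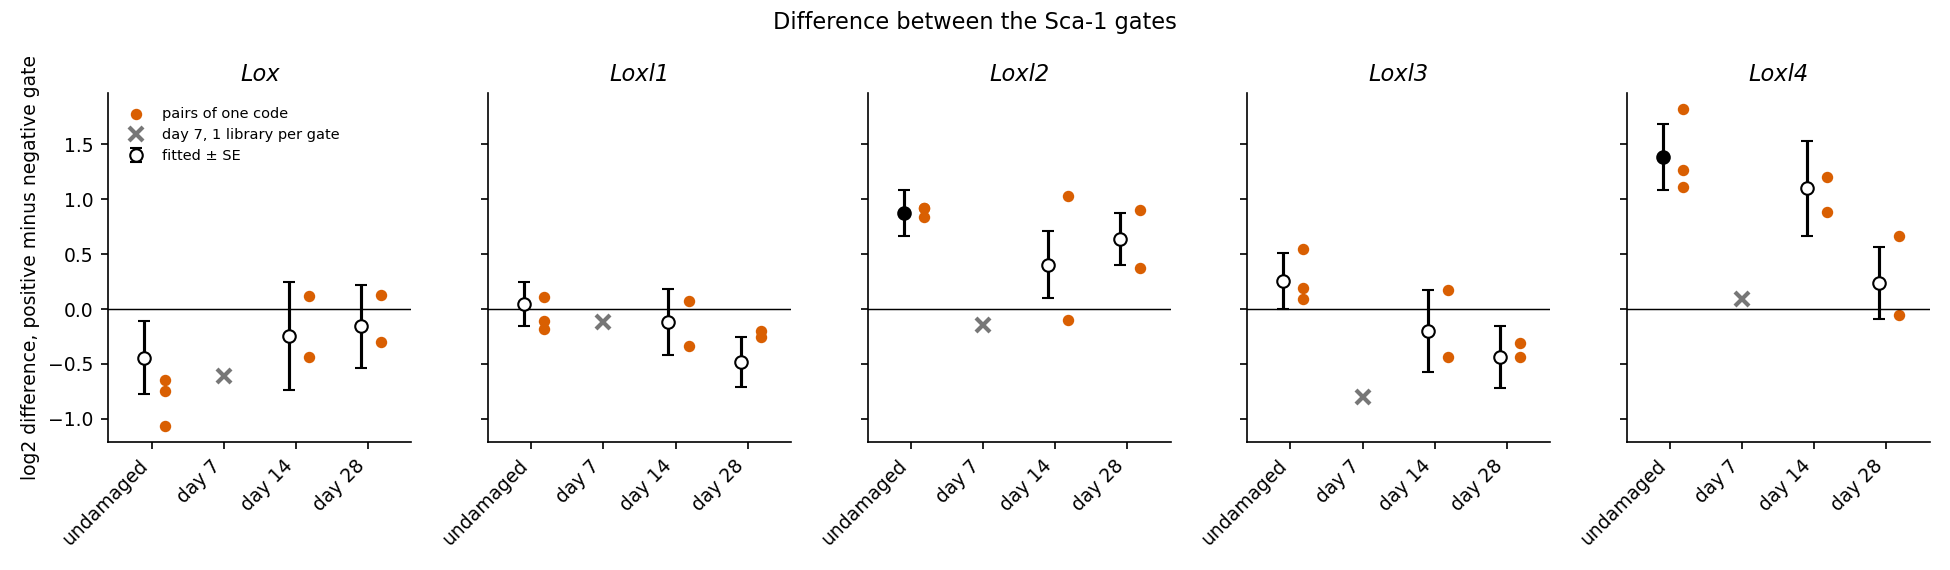
Log2 difference between the Sca-1 positive and negative gates for each member at the 4 times; black points are fitted values with standard errors, filled where the adjusted p was under 0.05, orange points are pairs of libraries that share a code (CPM plus 0.5), and crosses are the single pair of day 7. Loxl2 and Loxl4 of undamaged hearts are the filled points, at 0.87 and 1.38.

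Within single gates, Lox was higher than in undamaged hearts at day 14 in positive cells (2.06 ± 0.39, adjusted p = 0.00540) and in negative cells (1.86 ± 0.41, adjusted p = 0.0127). At day 28 it was called in positive cells (1.52 ± 0.33, adjusted p = 0.0267) and not in negative cells (1.24 ± 0.38, adjusted p = 0.133), and the difference between these changes was 0.28 ± 0.50 (adjusted p = 0.948). Loxl3 at day 28 was called in negative cells (1.25 ± 0.28, adjusted p = 0.0355) and not in positive cells (0.56 ± 0.25, adjusted p = 0.335), and the difference between these changes was -0.69 ± 0.38 (adjusted p = 0.907). Loxl2 at day 14 was called in negative cells (1.11 ± 0.25, adjusted p = 0.0160) and not in positive cells (0.64 ± 0.25, adjusted p = 0.286), with a difference between the changes of -0.47 ± 0.36 (adjusted p = 1.00).

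Loxl4 at day 28 differed from undamaged hearts by 1.34 ± 0.33 in negative cells (adjusted p = 0.0532) and by 0.20 ± 0.29 in positive cells (adjusted p = 0.819), and was called in neither. Loxl1 was called in neither gate at day 14 or day 28, with its largest difference in negative cells of day 28 (0.57 ± 0.23, adjusted p = 0.274). The shares of all genes called higher within positive cells were 1.61% at day 14 and 1.03% at day 28, and within negative cells 3.02% and 0.818%.

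The substrates of the family were examined next. These lists were drawn up with results of the same libraries known, so their counts are a description, to be read beside the 11.5%, 5.84% and 3.45% of all genes called higher, and the 11.2%, 3.14% and 1.94% called lower, at days 7, 14 and 28. Of the 11 fibrillar collagens tested, 9 were higher at day 7, 8 at day 14 and 7 at day 28 than in undamaged hearts, and none was lower. Their median log2 difference was 2.59 at day 7, 1.79 at day 14 and 1.03 at day 28, where the median of all genes was -0.04, -0.03 and 0.00. Col3a1, the collagen of thin reticular fibrils, averaged 39948 ± 5351 CPM at day 7 (SD, n = 6), 27465 ± 4353 CPM at day 14 (n = 4) and 15027 ± 2989 CPM at day 28 (n = 7), against 6492 ± 673 CPM in undamaged hearts (n = 9). Col1a1 and Col1a2, the chains of type I collagen, were higher by 2.94 ± 0.19 and 2.59 ± 0.17 at day 7. Col24a1 averaged 41.1 ± 47.3 CPM at day 14 and 3.18 ± 2.93 CPM at day 28, against 0.08 ± 0.15 CPM in undamaged hearts.

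Of the 12 elastic fibre genes, 8 were higher at day 7, 5 at day 14 and 2 at day 28. Eln, which encodes elastin, averaged 4650 ± 3685 CPM at day 7, 3249 ± 1274 CPM at day 14 and 1096 ± 764 CPM at day 28, against 605 ± 230 CPM in undamaged hearts, and it was called at days 7 and 14 (2.94 ± 0.44 and 2.42 ± 0.47). Mfap2 and Mfap4, which encode microfibril-associated proteins, were higher by 1.52 ± 0.23 and 1.93 ± 0.24 at day 7. At day 28 the called genes were Fbln1, which encodes fibulin-1 (0.86 ± 0.18, adjusted p = 0.00294), and Mfap4 (1.03 ± 0.23, adjusted p = 0.00603). Without the libraries with Xist above 20 CPM, 4 elastic fibre genes were called higher at day 7 and 2 at day 14. With libraries of one code summed, 2 were called higher at day 14 and 0 at day 28, and the lower calls of Colgalt2 and of Tll2, a protease related to Bmp1, at day 14 and of F13a1 at day 28 in the lists that follow were lost too. Between day 28 and day 7, 9 of the 11 collagens were lower, and of the elastic fibre genes 7 were lower and 1 higher, where 6.13% of all genes were called higher.

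Lysyl hydroxylation, which sets the form of collagen crosslinks, was carried by 7 tested genes, of which 4 were higher and 1 lower at day 7, 1 higher and 1 lower at day 14, and 1 higher at day 28. Plod2, the hydroxylase of collagen telopeptides, was higher each time, by 2.14 ± 0.19, 1.51 ± 0.20 and 0.87 ± 0.18. Fkbp10, a chaperone that Plod2 needs, was higher by 0.96 ± 0.17 at day 7. Colgalt2, a collagen galactosyltransferase, fell by 0.97 ± 0.15 on the log2 scale at day 7 and by 0.57 ± 0.17 at day 14.

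Of the 8 genes for propeptide processing and binding partners 7 were tested, and Tll1 was left out by the filter. At day 7, 4 were higher and 2 lower, at day 14, 4 and 1, and at day 28, 3 and none. Bmp1, the protease that releases the propeptide of Lox, was higher by 1.09 ± 0.14 at day 7 (adjusted p = 3.56e-06) and 0.89 ± 0.16 at day 14 (adjusted p = 0.000460), and by 0.43 ± 0.14 at day 28, which was not called (adjusted p = 0.0699). Fn1 and Postn, which encode fibronectin and periostin, both matrix proteins that bind Bmp1, were higher by 4.25 ± 0.49 and 3.75 ± 0.45 at day 7. At day 28 the called genes were Postn (2.02 ± 0.42), Fmod, which encodes the collagen-binding fibromodulin (2.95 ± 0.67), and Fn1 (1.85 ± 0.45).

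Copper transporters and transglutaminases had fewer calls. Of the 5 copper genes tested, Slc31a1, the plasma membrane importer, was higher at day 7 (0.43 ± 0.11), and Slc31a2 was lower (-0.33 ± 0.12). None was called at day 14, when Slc31a1 had the smallest p (0.26 ± 0.13, adjusted p = 0.218), or at day 28 (0.18 ± 0.11, adjusted p = 0.358). Of the 3 transglutaminases tested, which crosslink proteins through glutamine and lysine, Tgm2 was lower at day 7 (-0.66 ± 0.17, adjusted p = 0.00538) and F13a1 at day 28 (-1.43 ± 0.42, adjusted p = 0.0453). F13a1 is low here, at 0.91 ± 0.69 CPM at day 28 and 2.46 ± 0.85 CPM in undamaged hearts. At day 14 none was called, and Tgm1 had the smallest p, at 1.15 ± 0.81 CPM at day 14 and 0.25 ± 0.25 CPM in undamaged hearts (adjusted p = 0.152).

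**Figure D5:**
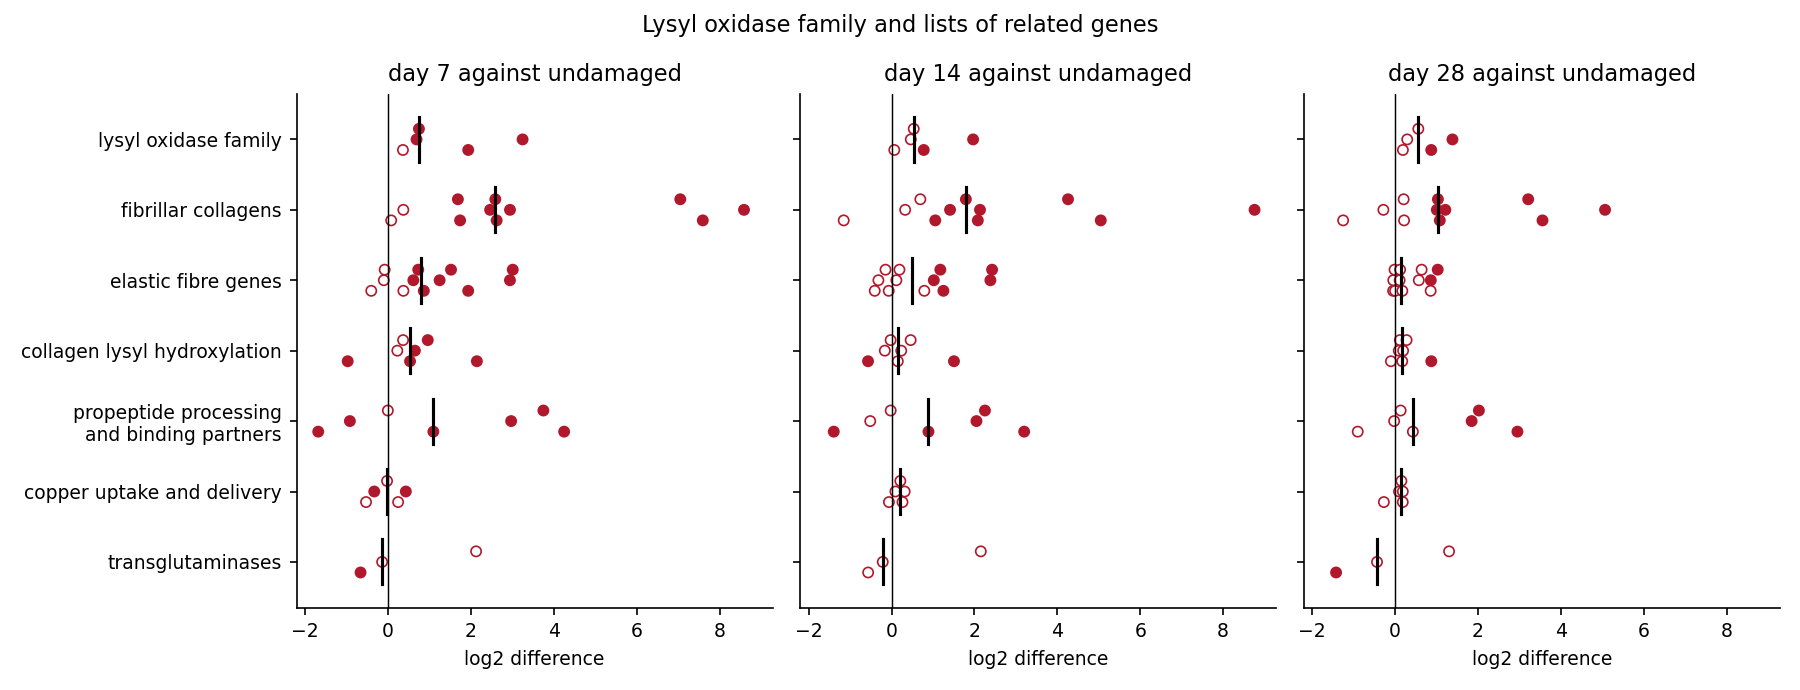
Log2 difference from undamaged hearts at days 7, 14 and 28 for the 5 members and for the tested genes of 6 related lists, 1 point per gene; filled points passed an adjusted p under 0.05, open points did not, and black bars are medians. Fibrillar collagens have medians of 2.59, 1.79 and 1.03; differences above 4 among them belong to genes near 0 CPM in undamaged hearts and depend on the fit's prior count.

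Between the gates of undamaged hearts no fibrillar collagen, lysyl hydroxylation, copper or transglutaminase gene was called, where 1.65% of all genes were called higher and 1.45% lower, so that no call among so few genes is near the background. Elastic fibre genes were split, with Mfap5 (1.54 ± 0.16) and Fbn1 (1.02 ± 0.26) higher and Fbn2 lower (-2.39 ± 0.46) in Sca-1 positive cells. Among the processing genes and partners, Fn1 (2.37 ± 0.44) and Pcolce2 (1.14 ± 0.15) were higher and Fmod lower (-2.79 ± 0.51) in positive cells.

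Each member had its own nearest genes across the 26 libraries. Likeness was measured as the root mean square difference of log2 CPM after each gene was centred on its mean, among 9142 genes other than the members with a mean log2 CPM of at least 3. The libraries share time points, codes and depth, so this is a description. Lox was nearest to Col1a1 (0.46), Col1a2 (0.48), Cdh2 (0.50), Col5a2 (0.52) and Actn1 (0.54), where the median over all candidates was 1.39. Loxl1, which varied least among the members, was nearest to Ltbp3 (0.15), Pld3 (0.17), Tsc22d4 (0.18), Ppp1r16a (0.18) and Qsox1 (0.18), with a median of 0.51. Loxl2 was nearest to Pcdh7 (0.21), Myof (0.23), Fstl1 (0.25), Cyb5r3 (0.25) and Setd8 (0.26), with a median of 0.63. Loxl3 was nearest to Adarb1 (0.36), Col8a1 (0.38), Klhl29 (0.38), Fat1 (0.39) and Enpp1 (0.40), with a median of 0.89. Loxl4 was nearest to Thbs3 (0.41), Agpat4 (0.42), Cpne8 (0.42), Fbln2 (0.42) and Ttll1 (0.43), with a median of 0.76. Among the members themselves Lox was nearest to Loxl3 (0.74) and farthest from Loxl4 (1.36).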

How the data were processed

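Per the labels' protocols, RNA with an integrity number above 8 was made into stranded mRNA libraries and sequenced as paired ends. The submitters' processing notes name bcl2fastq, TopHat, Bowtie2, STAR, Cufflinks and mm10, with no versions. Which program counted the reads, with what annotation and strand setting, is not given in the sources used here. The authors deposited counts, whole reads per gene symbol for each library, with 2 entries that name no gene. Those entries (reads outside genes, 5.53% to 55.8%, and ambiguous reads, 0.128% to 0.646%) stayed out of library sizes and tests.

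Counts were fitted with edgeR 4.0.16 (R 4.3.3; TMM, filterByExpr, two-sided quasi-likelihood test, Benjamini-Hochberg over all genes, threshold 0.05). The time fit held 26 libraries in 4 groups, gates together, since 4 libraries of day 7 have no labelled gate. The gate fit held 20 libraries in 6 groups. CPM used TMM-scaled totals over all 26 libraries. Standard errors were the log2 difference over the root of F. Lengths and positions came from GENCODE M21. Alternatives used DESeq2 1.42.0, limma 3.58.1 (voom), other libraries and other covariates. The scripts were tested on simulated data with known changes. In the 7 pairs of libraries that share a time and a code, deviations from the group means correlated at 0.259 to 0.424 over 13812 genes. Both pairs of day 14 must give the same value (0.407), since each gate there has 2 libraries. In undamaged hearts and at day 28 a pair also shares its kind of code, and libraries of unlike codes were not compared. The correlations therefore do not establish that a code is a pair, and the replicate block was an alternative only. No code recurs across times. The time fit counts both libraries of a code as independent, although they may be paired. A fit with the counts of libraries that share a code summed was added after seeing the data, and it kept the 6 libraries of day 7 single. No 2 libraries were identical. A floor of 3 reads per library was chosen, which equals 0.0575 to 0.424 CPM, and PCR copies are not told apart. The members and lists were chosen with earlier results of these data known. The members are named by symbol; of each list, up to 3 called genes with the smallest p, or else the one with the smallest p, are named per time, and between the gates all called genes.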

Additional observations from a re-analysis of the deposited data

Results flagged for a closer look

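Over the 5 members, 35 groups of 4 to 9 libraries were examined, by time and by gate within a time, and 3 held a library far from the others. Chance gives about 1 in 20 for separate groups. These groups share libraries, so that rate is only a rough guide here. Lox in Sca-1 positive cells of day 28 was 725 CPM in library B6, while the next highest was 471 CPM. Loxl3 in the same group was 199.6 CPM in library F2, while the next highest was 134 CPM. Loxl2 in Sca-1 positive cells of undamaged hearts was 286 CPM in library B7, one of the 3 with the fewest detected genes, while the next lowest was 442 CPM.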

How the results depend on the processing

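The 4 members called at day 7 and the 2 called lower at day 28 than at day 7 were called whichever single library was left out, and with DESeq2, limma-voom, DESeq2 size factors in edgeR and no low-count filter. Of the 5 members, the number called at day 14 against undamaged hearts was 1 (Lox) within the positive gate or without the Xist libraries. It was also 1 (Lox) without the 3 undamaged libraries with the fewest detected genes, or with libraries of one code summed. Both of these settings were chosen after seeing the data. Over all libraries DESeq2 also called Loxl1, and edgeR with the kind of code held also called Loxl3. The number was 4 among prefixed libraries, and leaving out 1 library gave 1 to 2. At day 28 it was 1 within either gate (Lox positive, Loxl3 negative) and 1 (Lox) without those 3 libraries or with libraries of one code summed, while it was 3 among prefixed libraries, where Loxl1 was called too. Between day 14 and day 7 it was 2 with DESeq2, 1 with limma-voom, 1 with the gate held, and 0 to 1 without single libraries. Between the undamaged gates it was 0 among prefixed libraries, 1 without the 3 libraries, and 1 to 2 without single libraries. The causes were not tested.

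With the replicate block Lox was called between the undamaged gates (-0.83), and Loxl1 changed sign (-0.068). The block changed no other call of a member. Signs also turned, always for differences not called, for Loxl1 between the undamaged gates among prefixed libraries (-0.018) and without the 3 libraries (-0.028), for Loxl1 at day 28 against day 14 within negative cells (0.025), for Loxl2 at day 28 against undamaged without the 3 libraries (-0.049), for Loxl2 at day 14 against day 7 without the Xist libraries (-0.12), for Loxl4 at day 28 against day 7 with the kind of code held (-0.049), and for Loxl4 at day 14 against undamaged without the Xist libraries (-0.14) or the 3 libraries (-0.24), or with libraries of one code summed (-0.061). Leaving out single libraries gave -0.25 to 0.25 for Loxl4 at day 14 against undamaged, -0.080 to 0.22 for Loxl2 at day 14 against day 7, and -0.061 to 0.14 for Loxl1 between the undamaged gates. Between the gates of day 14, where it leaves an arm with 1 library assumed to vary like the rest, it gave -0.77 to 0.59 for Lox, -0.25 to 0.019 for Loxl1 and -0.62 to 0.41 for Loxl3. The change in gate difference at day 14 ran from -0.33 to 1.03 for Lox, -0.86 to 0.069 for Loxl2 and -0.88 to 0.16 for Loxl3.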
